A study of Mus musculus with 1 sample.

Results

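The barcodes described here were 79 cell barcodes of the newborn mouse cortex that passed a gate for excitatory neurons and held transcripts of both Etv1 and Tshz2, with Fezf2 counted in the same sum. They were 1.08% (exact binomial 95% interval 0.859 to 1.35%) of the 7285 excitatory barcodes, out of 11062 barcodes in the whole table. Each member had at least 1000 detected genes, at least 2 UMIs (unique molecular identifiers, 1 per captured transcript) of Neurod2 and Neurod6 together, and at most 1 UMI of Gad1 and Gad2. Each also had at least 1 UMI of Etv1, at least 1 of Tshz2, and at least 4 of Etv1, Tshz2 and Fezf2 together. Barcodes with 5 or more UMIs of the corticothalamic genes Hs3st4, Nxph3, Syt6 and Foxp2 were left out, as were those with 5 or more of the subcerebral genes Fam19a1, Tcerg1l, S100a10 and Arhgdib. So were those with more than 2 UMIs of the subplate genes Nxph4, Cplx3 and Moxd1. The members were thus chosen by these measured values, which are given below as a description only.

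The material was 1 sc-RNA Seq library from the cerebral cortex of WT C57BL/6 mice at P0, the day of birth. The tissue was dissociated with papain and loaded on the 10x Chromium 3′ system. The labels do not say how many animals were pooled. The study compared WT with mice that carry human SERPINA3, and the knock-in library was not analysed here. With 1 library no test between conditions was possible, and every interval below covers counting error only. The table held 90346034 UMIs, between 500 and 92061 per barcode. Other excitatory barcodes numbered 7206 with a median of 9055.5 UMIs, against 10694 in the members.

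Layer V and layer VI of the cortex hold neurons that send axons out of the cortex. Fezf2 is the transcription factor that specifies subcerebral projection neurons, Bcl11b (Ctip2) acts downstream of it in these neurons, and Tle4 is a co-repressor of corticothalamic neurons. Etv1 (Er81) is an ETS factor long used to mark layer V, and Tshz2 is a teashirt zinc finger factor that marks near-projecting layer V neurons of the adult cortex. Pou3f1 and Cux1 are transcription factors that many callosal and upper-layer neurons express.

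The label of deep-layer neurons held for some of the members only. A Tle4 UMI was present in 43 of 79 members (54.4%, interval 42.8 to 65.7%), against 29.6% of the other excitatory barcodes and 98.3% of corticothalamic-side barcodes, which had 5 or more UMIs of the corticothalamic genes. Inhibitory barcodes (5 or more UMIs of Gad1 and Gad2, median 6538 UMIs), taken as the background for Tle4 and Tshz2, had a UMI of Tle4 in 13.8% and of Tshz2 in 9.36%. Etv1 and Bcl11b had a UMI in 33.5% and 70.9% of inhibitory barcodes, above the 10.8% and 30.1% of other excitatory ones, so these barcodes give no background for them. The Tshz2 share in other excitatory barcodes, 10.4%, was near the 9.36% of inhibitory ones. Whether inhibitory barcodes express Tle4 or Tshz2 was not tested, so their shares are no sure background. With each barcode thinned to 2000 UMIs, which left out 1 member and 200 other excitatory barcodes, the Tle4 share was 34.6% in members and 17.1% in other excitatory barcodes. Of the 6 markers of adult near-projecting neurons, Slc17a8, Cpne7 and Sla2 had no UMI in any member, which allows up to 2.92 CPM over the members (UMIs of a gene per 1000000 UMIs of the group, mitochondrial genes left out) and up to 3.80% of members with a UMI, which does not limit how many express the gene. Lypd1 had 6 UMIs in the members, or 5.84 CPM against 5.32 CPM in other excitatory barcodes, Trhr had 1, and Vwc2l had 5, or 4.87 against 4.10 CPM. None of the 6 averaged at least 10 CPM over members and other excitatory barcodes. These adult markers were thus low in both groups at P0 and cannot decide on a near-projecting identity. Because a Tle4 UMI was present in only 43 of 79, the members are called Etv1/Tshz2 members and not by a cell type.

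The members fell into 3 kinds, which were drawn after their values had been seen. The first was set apart by 24 markers of progenitors and astrocytes, oligodendrocyte precursors, microglia, and endothelial and mural cells. These markers had no UMI in 31 members and between 1 and 9 in 35, while 13 members held 10 or more, with a lowest value of 18, a median of 102 and a highest of 938. Those 13 are called glial/vascular members. Among the other 66, UMIs of Tle4 and Bcl11b together were 0 in 25, 1 in 5, between 2 and 7 in 14, and 10 or more in 22, with none at 8 or 9. The 36 with at least 2 are called Tle4/Bcl11b-positive and the 30 with at most 1 Tle4/Bcl11b-negative. Tle4, Bcl11b and the glial and vascular genes are thus no finding between these subsets.

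**Figure D1:**
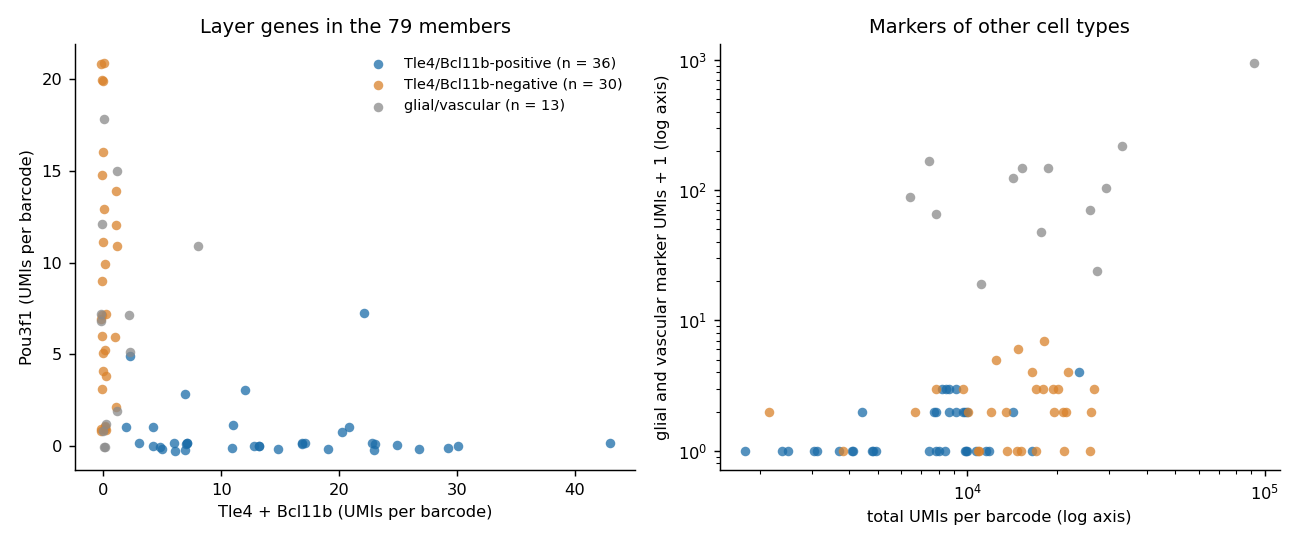
Each point is 1 of the 79 members. The left panel plots UMIs of Tle4 and Bcl11b together against UMIs of Pou3f1, with a small random shift so that equal points can be seen, and the right panel plots UMIs of glial and vascular markers plus 1 against the total UMIs, both on log axes. Colours give the 36 Tle4/Bcl11b-positive, 30 Tle4/Bcl11b-negative and 13 glial/vascular members; the member at the top right of the right panel has 92061 UMIs.

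The genes of the rule were spread over these subsets as follows. Etv1 had 1 UMI in 30 members, of which 5 were Tle4/Bcl11b-positive, 21 negative and 4 glial/vascular. All 10 members with 6 or more Etv1 UMIs were Tle4/Bcl11b-positive. Etv1 UMIs ran from 1 to 18 with a median of 3 in the positive members and from 1 to 4 with a median of 1 in the negative ones, although the latter were the deeper barcodes, with a median of 15782 UMIs against 8305. Tshz2 ran from 1 to 18 (median 3) in the positive and from 1 to 41 (median 4.5) in the negative members. Fezf2 had a UMI in 29 of 36 positive members and 9 of 30 negative ones.

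On the CPM scale, Etv1 stood at 695 in the positive members, 93.2 in the negative and 97.4 in the glial/vascular ones, against 30.8 in other excitatory barcodes. Tshz2 was at 580, 568, 232 and 41.8 CPM in the same order, and Fezf2 at 466, 44.4, 23.5 and 67.5 CPM. The rule selected on all 3 genes, and a barcode low in Etv1 and Fezf2 could enter only with Tshz2, so nothing is read from their relative levels. In the 1623 upper-side barcodes, with 5 or more UMIs of Cux1 and Cux2 and none of Tle4 and Bcl11b (median 9640 UMIs), an Etv1 UMI occurred in 6.04% and a Tshz2 UMI in 9.06%. How many of the negative members with 1 Etv1 UMI hold it as free RNA was not tested.

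The barcodes next to the limits show what the rule cut. At a sum of 4 for Etv1, Tshz2 and Fezf2, the lowest allowed, there were 14 members, of which 2 were Tle4/Bcl11b-positive. At 6 or more there were 53, of which 31 were positive. Just outside, at a sum of 3, there were 9 barcodes, none of them positive. Dropping the 3 exclusions gave 193 barcodes that met the other terms. By the definitions above, 140 of them were Tle4/Bcl11b-positive, 37 negative and 16 glial/vascular. Of the 193, 75 were over the corticothalamic limit alone and 25 over the subcerebral one alone, and the remainder outside the members were over more than one. None was over the subplate limit alone, and 4 were over it together with another limit. The 7 members with a corticothalamic sum of 4 were all Tle4/Bcl11b-positive (Tle4 1022 CPM), and 9 of the 10 barcodes at 5, just outside, also passed that threshold (Tle4 1295 CPM). There was no gap at this limit.

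Compared as a whole with the other excitatory barcodes, the members had higher summed levels of glial, vascular and red-cell genes. Out of 9246 genes with a mean of at least 10 CPM over both groups, 246 (2.66%) were at least 2-fold higher in members with 10 CPM added to both sides, and 19 (0.205%) at least 2-fold lower. Among genes with a UMI in at least 25% of the members, the highest included Igfbp3, an insulin-like growth factor binding protein, at 4.94-fold (2.04 without the deepest member), Sparcl1, a matrix protein of astrocytes and endothelium, at 4.21-fold (2.08), and the lipid carrier Apoe at 3.83-fold (2.17). The 10 progenitor and astrocyte markers summed to 1222 CPM in the members against 334 CPM. The 6 endothelial and mural markers summed to 780 against 17.4 CPM and the 4 globins to 4546 against 53.9 CPM; several genes of these lists passed the filter on low values through the members that held them, so no count of them is given. Fos, an immediate early gene, was at 3.32 times the level of other excitatory barcodes. Of the 13 deep-layer transcription factors, none was counted either way, with a median log2 ratio of -0.11.

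Those genes came from few barcodes. Of the 20 leading genes, 18 had most of their UMIs in the 13 glial/vascular members, which held 29.0% of all member UMIs. One member alone held 8.74%. At 92061 UMIs it was the deepest barcode of the library, the next member having 33090, and it carried 795 UMIs of endothelial and mural markers and 4668 of globins. Scrublet, a doublet caller, marked 6 of the 13 (46.2%), 5 of the 36 positive (13.9%) and 4 of the 30 negative members. It marked 7.23% of other excitatory barcodes, 14.3% of corticothalamic-side ones and 21.3% of the 75 over the corticothalamic limit alone. At least 10 UMIs of the 24 markers were found in 2.55% of other excitatory barcodes. Without the 13, over 8936 genes, 29 (0.325%) were higher and 44 (0.492%) lower. Without the deepest member alone, 61 were higher. The 184 other excitatory barcodes with at least 10 such UMIs stayed in these comparisons. With those left out as well, 28 genes were higher and 35 lower, and Apoe went from 3.83 to 1.24, Sparcl1 from 4.21 to 2.06 and Fos, which is not among the 24 markers, to 0.786 (0.492 to 1.19).

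The 66 members without those barcodes had 6430573F11Rik at 4.24 times the level of other excitatory barcodes, the glycosyltransferase gene Mgat4c at 4.53 times and the ryanodine receptor gene Ryr3 at 3.72 times. The secreted Dkk3 (2.83), the zinc finger gene Tshz3 (2.45, interval 2.12 to 2.82) and the CXXC zinc finger gene Cxxc4 (2.44, 2.11 to 2.81) were also higher. Lower were Rorb, the layer IV nuclear receptor, at 0.26, the calcium-binding protein gene Necab1 at 0.24, and the netrin receptor family gene Unc5d at 0.29. These sums join both neuronal subsets, so the subsets are described next one by one.

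**Figure D2:**
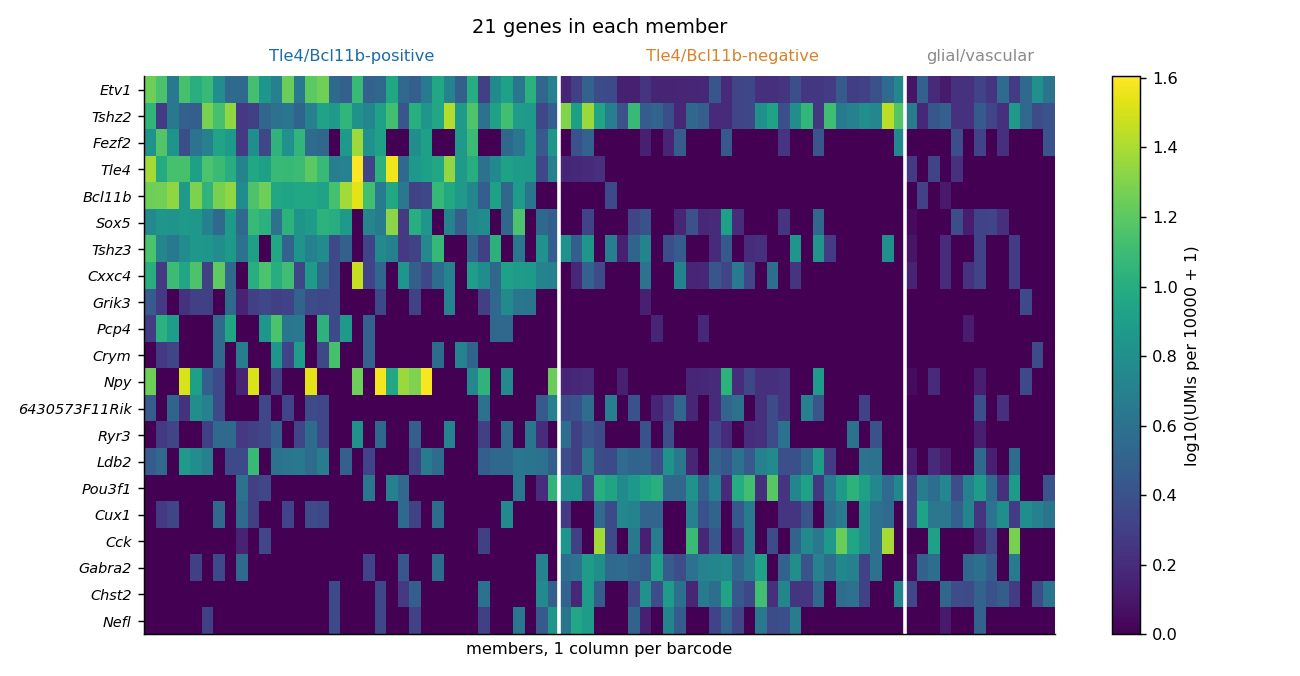
Rows are 21 genes and columns the 79 members, grouped as Tle4/Bcl11b-positive, Tle4/Bcl11b-negative and glial/vascular and ordered within each by their UMIs of Tle4 and Bcl11b; the colour is log10 of UMIs per 10000 plus 1. Cxxc4, Pcp4 and Grik3 are found mainly in the first block, and Cck, Gabra2 and Pou3f1 mainly outside it.

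In the Tle4/Bcl11b-positive members some transcription factors of deep-layer neurons were higher than in other excitatory barcodes. Tle4 ranged from 1 to 25 UMIs per barcode (median 6.5) and Bcl11b from 0 to 20 (median 6). Their sums were 899 and 949 CPM, against 159 and 172 CPM in other excitatory barcodes. These 2 genes split the members and describe the subset only. Sox5, an SRY-box factor that controls when deep-layer neurons are made, was not used and had 0 to 11 UMIs (median 4.5, a UMI in 32 of 36), or 552 CPM against 249. Tshz3 had 0 to 14 UMIs (median 3) and 433 CPM against 112, 3.88-fold (3.21 to 4.64). Ldb2, a LIM-domain cofactor of subcerebral neurons, stood at 254 against 120 CPM, 2.12-fold (1.65 to 2.68). Of the 10 deep-layer transcription factors with enough counts other than Tle4 and Bcl11b, these 3 were counted as higher and none as lower. The median log2 ratio of the 10 was 0.02 beside 0.03 over all genes, and Tbr1 was at 122 against 117 CPM.

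Against the other excitatory barcodes, 212 of 8996 genes (2.36%) were higher in the positive members and 260 (2.89%) lower. Without the barcodes that Scrublet marked, 323 were higher. The extracellular matrix gene Spon1 (F-spondin) and Ildr2 led at 10.4-fold each. Spon1 was carried by 12 of the 36, with at most 8 UMIs in one. Cxxc4 had 0 to 13 UMIs with a median of 2, a UMI in 32 of 36, and 552 CPM against 111, 4.97-fold (4.21 to 5.83). The kainate receptor subunit gene Grik3 had at most 2 UMIs in a barcode but was present in 23 of 36, at 96.7 against 16.3 CPM, 5.93-fold (3.89 to 8.67). Serpini1, which encodes neuroserpin, was 4.87-fold higher, the HMG-box factor Tox 4.47-fold, and the glycine receptor subunit gene Glra2 4.66-fold. The calmodulin-binding peptide gene Pcp4 was 4.37-fold higher, at 236 CPM, and was present in 15 of 36 with up to 13 UMIs in one.

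Genes of upper-layer and callosal neurons stood low in the same barcodes. Of 15 counted, 9 were at least 2-fold lower and none higher, with a median log2 ratio of -1.20 beside 0.03 over all genes. Pou3f1, a POU factor of callosal and subcerebral neurons, had no UMI in 27 of 36 and stood at 82.4 against 568 CPM, a ratio of 0.145. Cux1, Rorb, Ptn and Lhx2 were among the others, with Ptn at 688 against 2432 CPM and Lhx2 at 100.3 against 261 CPM. Against the corticothalamic-side barcodes, none of 14 such genes counted was lower. Bhlhe22 and Pou3f3 were higher, with a median log2 ratio of 0.23. A Pou3f1 UMI was found in 25% of positive members and 25.8% of corticothalamic-side barcodes, and a Cux1 UMI in 33.3% and 38.5%. The low levels were thus not particular to the positive members.

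Signalling and adhesion genes were mixed. Over all 8996 genes counted, 2.36% were higher and 2.89% lower, with a median log2 ratio of 0.03. Among 39 adhesion molecules, Cadm1, Nrcam, Flrt2, Kirrel3, Cntn4, Lrrtm3 and Nrxn3 were higher and Negr1 lower, with a median log2 ratio of 0.38. Cadm1, a synaptic adhesion protein, was at 734 against 257 CPM and Nrcam at 480 against 179 CPM. Of 15 neuropeptides and granins, Nts, Rprm, Chgb, Npy and Adcyap1 were higher, and Cck and Scg2 lower. Npy, a neuropeptide gene, had 0 to 44 UMIs with a median of 1, and 942 against 404 CPM. Neurotensin (Nts) had 39 UMIs in 8.33% of the subset. Cholecystokinin (Cck) had 0 in 33 of 36 and a ratio of 0.080. Of 17 glutamate receptor genes, Grik3 and the auxiliary subunit gene Neto2 were higher and Grm2 lower. No neurofilament or axon growth gene of 10 was counted either way, and at the shares over all genes a list of 10 says little.

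Low glial and vascular markers were fixed by the choice of the positive members, and Gad1 and Gad2 by the gate on excitatory barcodes. The 3 oligodendrocyte precursor markers and the 5 microglia markers were at 0, progenitor and astrocyte markers summed to at most 3 UMIs in a barcode, and interneuron markers to at most 1, or 17.9 CPM against 21.7 CPM in other excitatory barcodes. Of 4 striatal markers counted, 1 was higher than in other excitatory barcodes, with a median log2 ratio of 0.56 beside 0.03 over all genes. Ppp1r1b was at 46.6 against 17.7 CPM, with 13 UMIs in 16.7% of the subset, and Meis2 at 523 against 434 CPM.

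The corticothalamic-side barcodes numbered 1080, with a median of 9908 UMIs. All 79 members were higher than these in 361 of 9287 genes (3.89%) and lower in 149 (1.60%). Without the glial/vascular members the higher count was 101, and without the deepest member 176. For the positive subset alone, 145 of 8965 genes (1.62%) were higher and 188 (2.10%) lower. Tle4 was at 899 against 764 CPM, whereas Sox5 was at 552 against 799 and Tbr1, the corticothalamic T-box factor, at 122 against 230 CPM. Tshz3, Grik3 and Npy, given above as higher than in other excitatory barcodes, were not counted as higher than on this side. A Tshz3 UMI was found in 83.3% of positive members and 83.9% of corticothalamic-side barcodes. For Grik3 the shares were 63.9% and 47.8%, and for Npy 52.8% and 60.3%.

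Cxxc4 was higher than on the corticothalamic side too, at 552 against 81.8 CPM, 6.75-fold (5.65 to 8.01). 6430573F11Rik was 11.3-fold higher, Spon1 6.16-fold, and the bHLH factor Bhlhe22 4.45-fold (3.60 to 5.45). Pcp4 was 3.98-fold and Glra2 3.94-fold higher. Low in the positive members were Zfpm2 (FOG2), a corticothalamic cofactor, with 3 UMIs and a ratio of 0.118 (0.024 to 0.35), and Nfia, a nuclear factor I gene, at 143 against 702 CPM, a ratio of 0.20. Kit ligand (Kitl) had 3 UMIs and a ratio of 0.066. Ngfr, the p75 neurotrophin receptor gene, had none and was at least 4.37-fold lower, and Tmem132b at least 5.50-fold lower. Of 6 corticothalamic markers outside the rule, with Tle4 of the split among them, Zfpm2 and Nfia were lower and none higher. Their median log2 ratio was -0.90 beside 0.01 over all genes. A limit on corticothalamic genes parted these groups, so lower levels of genes that vary with them are no finding.

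Against the 75 barcodes that met the positive terms but lay over the corticothalamic limit, the positive members differed less in these genes. Of 8977 genes, 74 (0.824%) were higher and 168 (1.87%) lower. In those 75, Etv1 was at 523 CPM, Tshz2 at 585, Cxxc4 at 384, Tshz3 at 402 and Npy at 1235 CPM. Nfia was at 185 and Kitl at 23.2 CPM, near the 143 and 10.7 CPM of the positive members and far from the 702 and 162 CPM of all corticothalamic-side barcodes. Zfpm2 was at 42.4 CPM against 10.7. The ratio of positive members to these barcodes was 1.44 (1.18 to 1.74) for Cxxc4, 1.08 (0.87 to 1.32) for Tshz3, 0.78 (0.54 to 1.10) for Nfia and 0.25 (0.05 to 0.79) for Zfpm2. The same limit parted these groups, so nothing is read from the Zfpm2 ratio.

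**Figure D3:**
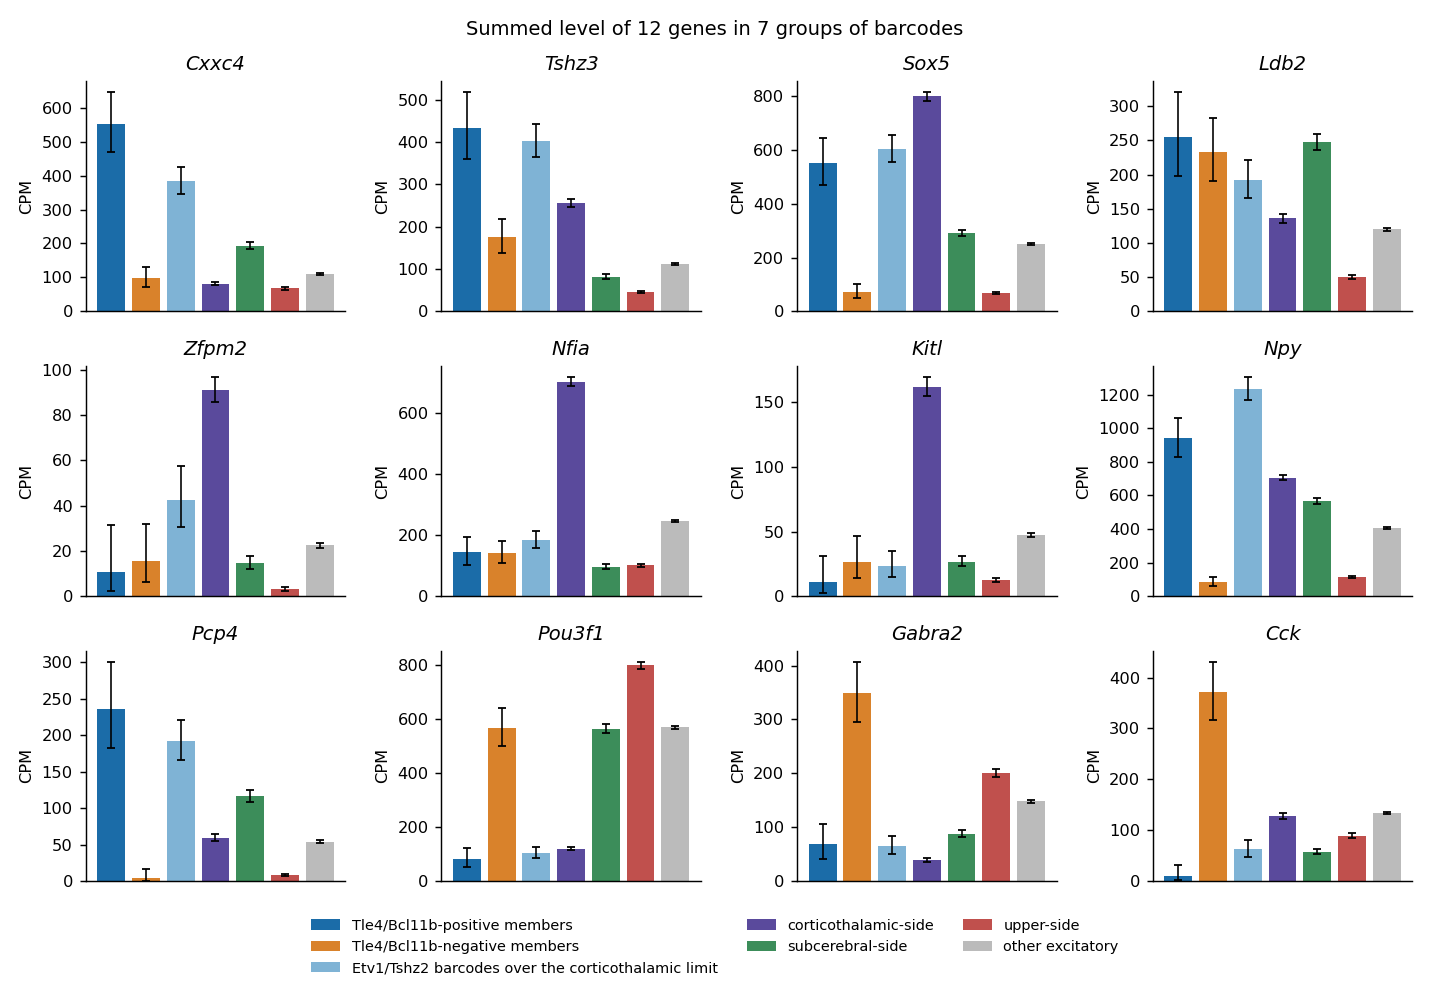
Bars give the CPM of 12 genes in 7 groups of barcodes, with exact Poisson 95% counting intervals: Tle4/Bcl11b-positive and Tle4/Bcl11b-negative members, the 75 Etv1/Tshz2 barcodes over the corticothalamic limit, all corticothalamic-side barcodes (which hold those 75), subcerebral-side, upper-side, and all other excitatory barcodes (which hold the previous 4). Cxxc4 is at 552 CPM in the positive members and 81.8 on the corticothalamic side, and Nfia at 143 against 702.

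The 325 subcerebral-side barcodes, with at least 1 Fezf2 UMI and 5 or more UMIs of the subcerebral genes, had a median of 20338 UMIs. All 79 members were higher in 361 of 9156 genes (3.94%) and lower in 81 (0.885%), with 62 higher once the glial/vascular members were left out and 161 without the deepest member. The positive subset was higher in 308 of 8875 genes (3.47%) and lower in 254 (2.86%). Tle4, Tshz3 and Tbr1 were the deep-layer factors counted as higher, Tshz3 at 5.26-fold and Tbr1 at 122 against 46.4 CPM. Grik3 was 10.5-fold and Serpini1 9.22-fold higher. A Cxxc4 UMI was found in 80.0% of the deeper subcerebral-side barcodes and 88.9% of the positive members. Of 9 subcerebral markers, among them Pcp4, which was not used in the split, and Bcl11b, which was, none was higher and Crim1 and Ntng1 were lower. Of 10 neurofilament and axon growth genes, Nefl, Gap43 and Nefm were lower, Gap43 at 792 against 2266 CPM. The protocadherin gene Pcdh19 (0.064), the synaptotagmin gene Syt4 (0.125), neurogranin (Nrgn, 0.146) and Pou3f1 (0.146) were lower too, and Sorcs1, a sortilin family receptor gene, had no UMI and was at least 5.89-fold lower.

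The Tle4/Bcl11b-negative members had a different set of genes. Tle4 had at most 1 UMI in a barcode and none in 26 of 30, and Bcl11b none in 29, by the split. Pou3f1, which was not used, had a UMI in all 30, between 1 and 21 with a median of 7, and 566 CPM against 568 in other excitatory barcodes. That level was thus close to that of the other excitatory barcodes and below that of the upper-side barcodes, at 799 CPM.

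Set directly against the negative members, the positive ones were higher in 496 of 8846 genes (5.61%) and lower in 344 (3.89%). Both groups were small, with 279167 UMIs in the positive and 450420 in the negative members, mitochondrial genes left out. Counting error therefore weighs more in these counts than in those against larger groups. Pou3f1 had no UMI in 27 of the 36 positive members and at least 1 in each of the 30 negative ones, which were the deeper barcodes. With each barcode thinned to 2000 UMIs, Pou3f1 was present in 5 of 35 positive and 17 of 30 negative members. Pcp4 had 66 UMIs in the positive subset and 2 in the negative. Crym, the thyroid hormone binding protein gene of subcerebral neurons, had 43 and 0 (at least 23.1-fold higher), and Ildr2 28 and 0 (at least 15.1-fold). Npy was 11.2-fold, the LIM-only factor Lmo3 12.7-fold and Sox5 7.77-fold higher in the positive subset. In the other direction Cck had a ratio of 0.029, Sfrp1, a secreted Wnt antagonist, 0.137 and Pou3f1 0.146.

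Against other excitatory barcodes the negative members stood out little. Of 8824 genes, 38 (0.431%) were higher and 91 (1.03%) lower. 6430573F11Rik had 0 to 5 UMIs, was present in 18 of 30, and was 4.43-fold higher (3.27 to 5.89). Cck had 0 to 35 UMIs with a median of 2.5 and 371 against 134 CPM, 2.78-fold. Chst2, a sulfotransferase gene, had 0 to 18 UMIs with a median of 3 and was 3.13-fold higher. Ryr3 was 3.40-fold and the growth factor antagonist Spry2 3.50-fold higher. Lower were Lmo3 (0.137), Npy (0.209), Rorb (0.218) and the Eph receptor gene Ephb1 (0.25).

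Of 12 GABA receptor and chloride transporter genes counted in the negative subset, Gabra2, Gabrb1 and Gabrg1 were higher, none lower and 9 not counted either way, with a median log2 ratio of 0.35 beside -0.02 over all genes. Gabra2 had 0 to 15 UMIs with a median of 5, a UMI in 27 of 30, and 349 against 148 CPM, 2.35-fold, with 201 CPM on the upper side. In the positive members it had no UMI in 29 of 36 and stood at 68.1 CPM. Neurofilament genes Nefm (220 against 94.7 CPM) and Nefl (171 against 75.6 CPM) were higher, each carried by part of the subset. Nefl had a UMI in 14 of 30, with up to 16 in one. Of 15 upper-layer and callosal genes only Rorb was counted, as lower, with a median log2 ratio of -0.11, and of 10 deep-layer factors other than Tle4 and Bcl11b, Lmo3 and Sox5 were lower, with a median log2 ratio of -0.50.

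Against the upper-side barcodes, 106 of 8696 genes (1.22%) were higher in the negative members and 98 (1.13%) lower, and those named here were chosen after their values were seen. 6430573F11Rik was at 109 CPM against 9.08 on the upper side, the contactin gene Cntn5 was 6.28-fold higher, Nefl 4.89-fold, Ldb2 4.64-fold, Rprm 4.35-fold and Cck 4.15-fold. Of 15 upper-layer and callosal genes, Lmo4 was higher and Rorb, Cux1, Cux2, Pou3f2 and Ptn were lower, of which Cux1 and Cux2 had chosen the upper-side barcodes. Rorb was at 22.2 against 115 CPM, Pou3f2 at 309 against 736 CPM and Lmo3 at 17.8 against 101 CPM. Of 10 deep-layer factors counted, Ldb2 and Tshz3 were higher, and Lmo3 and Bcl6 lower. Ldb2 was at 233 CPM in the negative members, 254 in the positive members, 248 on the subcerebral side and 50.2 on the upper side.

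Barcodes with Tshz2 but no Etv1, under the same terms otherwise, numbered 131 (median 11671 UMIs), and 117 of them (89.3%) were Tle4/Bcl11b-negative. Their Cck was at 553 CPM and their Gabra2 at 346 CPM, beside 371 and 349 CPM in the negative members. Barcodes with Etv1 but no Tshz2 numbered 36, of which 16 were Tle4/Bcl11b-positive, 8 negative and 12 glial/vascular. Tshz2 in the first group was at 738 CPM and Etv1 in the second at 328 CPM.

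6430573F11Rik and Ryr3 were counted as higher than in other excitatory barcodes in both neuronal subsets. Each subset was compared with the same other excitatory barcodes, so their values are given side by side. 6430573F11Rik was at 96.7 CPM in the positive and 109 CPM in the negative members, against 24.5 in other excitatory barcodes, 68.5 on the subcerebral side and 8.55 on the corticothalamic side. Ryr3 was at 96.7 and 77.7 CPM against 22.9 in other excitatory barcodes, 39.8 on the corticothalamic side, 24.1 on the subcerebral side and 90.9 in the 75 barcodes over the corticothalamic limit, where 6430573F11Rik was at 38.4 and Ldb2 at 192 CPM. Ldb2, as given above, was at 254 and 233 CPM against 120, and in the negative members its ratio of 1.94 (1.59 to 2.35) was under the 2-fold limit. In the 13 glial/vascular members, 6430573F11Rik was at 16.8, Ryr3 at 3.4 and Ldb2 at 53.7 CPM.

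The barcodes nearest to each member, in 30 principal components of 2000 variable genes without those of the rule, showed the same division. Of the 20 nearest excitatory barcodes, 6.90% were members on average, against 1.08% of all excitatory barcodes. For the positive members, 53.8% of neighbours were corticothalamic-side (14.8% of all), 27.8% were among the 75 barcodes over the limit (1.03%), 10.8% were subcerebral-side (4.46%) and 2.78% were upper-side (21.8%). For the negative members, 0.833% were corticothalamic-side, 17.8% upper-side and 19.7% barcodes with Tshz2 and no Etv1 (1.80% of all). Positive members made up 8.75% of the neighbours of positive ones (0.494% of all), and negative members 4% of those of negative ones (0.412% of all). Negative members made up 0.278% of the neighbours of positive ones, and positive members 0.333% of those of negative ones. These last shares rest on 2 neighbours each and lie near the shares of all, so they show no division by themselves. Of the neighbours of glial/vascular members, 6.92% were glial/vascular members (0.178% of all). The markers that set these members apart were not left out of the components, so this share is no finding. With Tle4, Bcl11b and the glial and vascular markers left out of the components, the corticothalamic-side shares were 53.2% and 0.833%. The shares within and between the subsets were not recomputed that way.

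**Figure D4:**
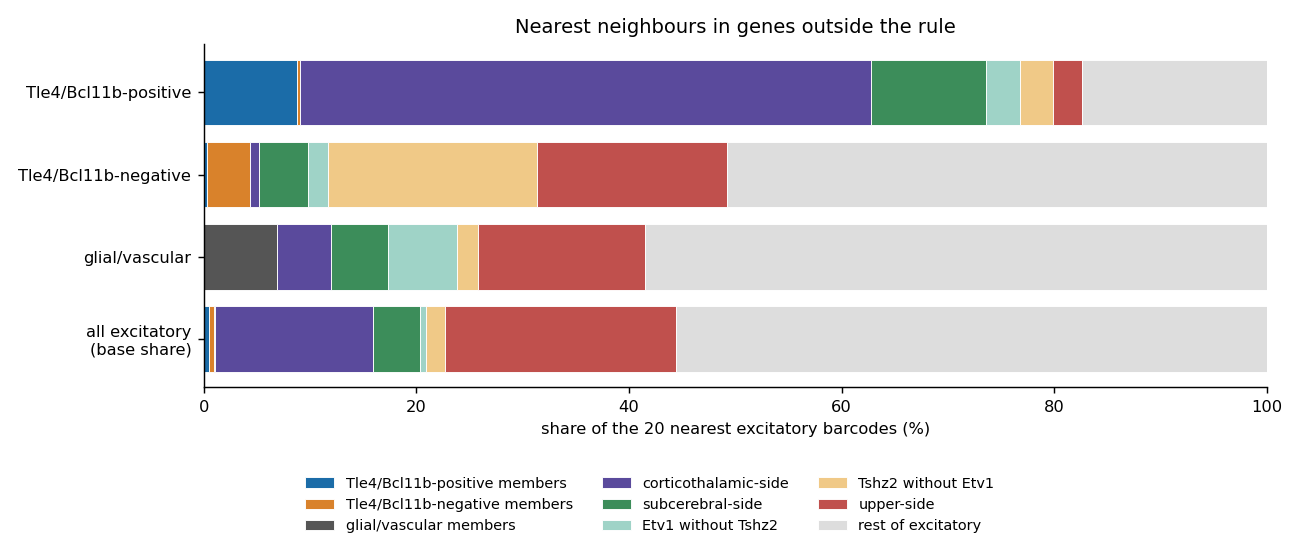
Stacked bars give the shares (percent) of the 20 nearest excitatory barcodes by kind, for the 36 Tle4/Bcl11b-positive, 30 Tle4/Bcl11b-negative and 13 glial/vascular members, beside the shares of all excitatory barcodes. Corticothalamic-side barcodes are 53.8% of the first bar and 0.833% of the second, against 14.8% of all.

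With each barcode thinned to 2000 UMIs, Tle4 was present in 74.3% and Bcl11b in 82.9% of 35 positive members. Neither had a UMI in the 30 negative members at that depth, and at full depth Tle4 had 1 in 4 of them; the split fixed both values. Etv1 was present in 26 of 35 positive and 6 of 30 negative members at that depth, and Tshz2 in 23 and 16.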

How the data were processed

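Single cells of 1 WT P0 cortex library were analysed. The authors deposited raw UMI counts per gene and barcode, not normalized, with a table of UMI and gene totals that equalled the column sums in all 11062 barcodes. The submitters' processing notes name STAR, Cell Ranger 2, Seurat and the build mm9; how barcodes were called as cells and the annotation are not given in the sources used here, and no coordinates were used. UMIs were summed per group of barcodes and scaled to CPM without mitochondrial genes. Genes were counted by size: CPM ratio of at least 2 either way with 10 CPM added, over genes whose CPM averaged over both groups was at least 10, leaving out the 18 genes of the rule. Ratios carry exact conditional 95% intervals, shares Clopper-Pearson intervals, and a count of 0 a floor of 3 counts. PCR copies are collapsed by UMI, and all intervals cover counting error only. Barcodes of a library are not replicates, so no test was run. Barcodes marked by Scrublet (expected doublet rate 6%, 6.25% marked) were kept. The deposited tables used here carry no cell types.

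Named genes were those of the rule, the 20 highest and 10 lowest against other excitatory barcodes with a UMI in at least 25% of barcodes, the 10 extremes against each neighbouring group, and up to 6 of each of 31 gene lists, of whose 477 symbols 476 were in the table. Genes named for the subsets were chosen after their values were seen, as were the subsets themselves. The members and the lists were chosen with earlier results of these data known. The counting was checked on simulated data. Alternatives changed the gene and UMI limits, the fold, the added CPM, the weighting, depth matching, doublets and the neighbour settings. Python 3.11.15, NumPy 2.4.6, SciPy 1.17.1, pandas 2.3.3 and scanpy 1.11.5 were used. Some genes are not reported here.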

Additional observations from a re-analysis of the deposited data

How the results depend on the processing

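No paired analysis was possible because the WT cortex gave a single sample. The share of members fell to 0.728% with at least 6 UMIs of Etv1, Tshz2 and Fezf2 and to 0.741% with at most 2 UMIs in each side sum. The 246 genes higher in members became 124 with each barcode weighted equally and 113 at 3-fold, and, in alternatives chosen after seeing the data, 29 without the glial/vascular members, 28 without all excitatory barcodes of that kind and 61 without the member with the most UMIs. The 19 lower genes became 42 with at least 6 UMIs, 38 with at most 2 in each side sum, 48 without Scrublet doublets, 53 with equal weights, 82 with 1 CPM added, 3 at 3-fold, 44 without the glial/vascular members and 35 without all barcodes of that kind. Members among the neighbours of members were 8.36% over barcodes with at least 2000 genes and 3.80% with at most 2 in each side sum. Against the corticothalamic side the 361 higher genes became 101 without the glial/vascular members and 176 without the largest member, and against the subcerebral side 62 and 161. Without doublets, 323 genes were higher in Tle4/Bcl11b-positive members in place of 212.

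Without the glial/vascular members the ratio to other excitatory barcodes turned to 0.377 for Apoe, 0.502 for Hmgb2, 0.488 for Qk, 0.643 for Fos, 0.116 for Fabp7, 0.849 for Nfkbia (0.948 without the largest member), 0.524 for Dbi, 0.824 for Slc1a3, 0.786 for Plpp3, 0.928 for Ier2, 0.846 for Gnai2 and 0.787 for Egr1. These 12 were the reversals among 40 named genes in that setting, which left the 184 other excitatory barcodes of that kind in place and removed the members on Fabp7 and Slc1a3 among others. With those 184 left out too, 7 turned, to 0.774 for Qk, 0.786 for Fos, 0.699 for Fabp7, 0.893 for Nfkbia, 0.963 for Dbi, 0.998 for Ier2 and 0.963 for Gnai2, while Slc1a3 was at 1.76 and Apoe at 1.24. Without the largest member only Nfkbia turned. Ratios of the 40 genes also moved beyond their counting interval, without reversal, in 26 with equal weights, 22 with at most 2 UMIs in each side sum, 21 with at least 6 UMIs, 21 without doublets, 15 without the glial/vascular members, 20 without all barcodes of that kind and 12 without the largest member. With equal weights Igfbp3 was at 2.37 and Sparcl1 at 2.75. The cause of these moves was not tested. Precision was limited by the 279167 UMIs of the Tle4/Bcl11b-positive members, where 3 counts equal 10.7 CPM.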
